A study of Mus musculus with 10 samples.

Results

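The genes described here are 9 that encode transcription factors of the Sertoli cell, the somatic cell that supports germ cells inside the seminiferous tubule: Sox9, Sox8, Dmrt1, Gata4, Gata6, Gata1, Wt1, Nr5a1 and Nr0b1. They were taken by gene symbol alone, and all 9 were listed among the 17816 genes of a table of Sertoli cells at day 7 after birth and among the 20007 genes of a table of adult testis. The study asked what Sertoli cells need RNF20 for, an E3 ubiquitin ligase that adds ubiquitin to histone H2B. Oligo(dT)-enriched RNA was sequenced, and each table gives an estimated count per gene, the FPKM value (fragments scaled by gene length and by library size) and the TPM value (scaled to a fixed total).

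At day 7 there were 2 samples of Sertoli cells from Rnf20 Flox/Flox mice, which the labels call WT, and 2 from Amh-Rnf20-/- mice, in which Cre recombinase under the Amh promoter excises floxed exons of Rnf20 in Sertoli cells. The titles and the methods place these 4 samples at day 7, while a growth entry in the labels reads adult for all 10 samples. The 3 spermatid markers listed summed to an FPKM of 0.2 to 0.98 in these 4. Both groups carry the floxed alleles, and the cells were digested from the tubules, plated in serum and cultured, so cells of other types that attach could remain. The adult table holds 3 testis samples labelled WT and 3 labelled RNF20 conditional knockout, for which the labels give no driver and no exact age, and whole testis also holds Leydig, peritubular, vascular, immune and germ cells. The methods describe separate individuals for the day 7 cells, more in each group than the 2 analysed here. The sources used here do not say so for the adult samples, and a p-value there measures only the spread between these samples, which may be technical. The tables come from different materials and were analysed separately.

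The positions of the members are those of RefSeq on GRCm38.p6. Sox9 (Entrez 20682) spans 112782210 to 112787757 on chromosome 11 and Sox8 (20681) spans 25565893 to 25570686 on chromosome 17. Dmrt1 (50796) spans 25505618 to 25604328 on chromosome 19, Gata4 (14463) spans 63198914 to 63271712 on chromosome 14, and Gata6 (14465) spans 11052510 to 11085636 on chromosome 18. Wt1 (22431) and Nr5a1 (26423) both lie on chromosome 2, at 105126529 to 105173614 and at 38692656 to 38714542. Gata1 (14460) and Nr0b1 (11614) are both X-linked, at 7959260 to 7976663 and at 86191775 to 86195947. The gene model of Gata6 overlaps Gata6os and that of Gata1 overlaps Gm52419 and Gm39488, and since the handling of strand is not given in the sources used here, reads of these neighbours cannot be told apart from those of the member.

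In the fetal gonad, GATA4, WT1 and NR5A1 act upstream of SRY and SOX9, and SOX9 with SOX8 then keeps the Sertoli cell programme, including the transcription of Amh. DMRT1 holds that identity against the granulosa cell programme after birth. Several of these factors are not limited to Sertoli cells: NR5A1, GATA4 and NR0B1 are also made by Leydig cells, the steroid-producing cells between the tubules, DMRT1 by spermatogonia, and GATA1 by red cell and mast cell precursors.

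Promoter windows from RefSeq (GRCm38.p6) were searched for 3 of the 9 members, Sox8, Gata1 and Nr0b1. Windows of the other members were not searched, which does not mean that none exists for them. The 250 bases before the start site are shown for the X-linked pair, which were almost silent in the day 7 cells and readily measured in the adult testis. Both read 5′ to 3′ on the strand of the gene, chrX:86191525-86191774 on the plus strand for Nr0b1 and chrX:7967911-7968160 on the minus strand for Gata1, and the capitals mark the nuclear receptor half-site AGGTCA, a motif that NR5A1 can bind.
Nr0b1: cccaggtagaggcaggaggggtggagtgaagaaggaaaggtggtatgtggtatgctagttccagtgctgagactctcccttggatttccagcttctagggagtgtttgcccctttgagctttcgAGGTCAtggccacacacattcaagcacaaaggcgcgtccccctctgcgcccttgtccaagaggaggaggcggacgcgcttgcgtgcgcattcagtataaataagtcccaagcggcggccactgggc
Gata1: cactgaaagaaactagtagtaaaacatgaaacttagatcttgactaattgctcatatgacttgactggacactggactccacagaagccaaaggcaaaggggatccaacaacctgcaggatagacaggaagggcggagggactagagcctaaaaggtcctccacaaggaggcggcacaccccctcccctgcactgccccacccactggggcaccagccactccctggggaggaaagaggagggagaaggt
The windows, which run on for 50 bases past the start, were searched on both strands for GATAA (GATA factors), ACAAT (SOX factors) and AGGTCA, motifs that share no full copy with one another. Only 1 match was found among the 3 members, AGGTCA in Nr0b1, beginning 126 bases before the start site. Of all 32544 RefSeq windows of this length, 25.3% held GATAA, 30.8% held ACAAT and 16.2% held AGGTCA. A match is a description of letters, and the absence of one says only that the letters are not in this window. The Gata1 window belongs to a start site 8753 bases downstream of the outermost end of its gene model. Which start site the Gata1 reads of these samples came from was not tested.

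Total counts ran from 17477268 to 17705347 per sample at day 7 and from 15431912 to 16574144 in the adult testis. The targeted gene, Rnf20, was measured at an FPKM of 16.64 and 16.01 in Rnf20 Flox/Flox cells against 10.25 and 12.58 in the Amh-Rnf20-/- samples (log2 fold change -0.49, SE 0.12, adjusted p = 0.222, edgeR), and in the adult testis its FPKM ranged from 3.32 to 4.89 among controls and from 5.76 to 9.85 among samples labelled knockout. With TMM the adult fit gave Rnf20 a log2 fold change of 0.12 (SE 0.27, adjusted p = 0.688, edgeR), with median-ratio scaling -0.08 and with total counts 0.97 (adjusted p = 0.0168), so the difference depends on the scaling and the adult groups are named by their labels. The first knockout sample of the adult testis stood apart from the others. At day 7 the 2 knockout samples differed from each other, and with 2 neither can be named the outlier. The tables hold different samples, which share only their number. In the first adult knockout sample the 14 Sertoli cell markers other than transcription factors summed to an FPKM of 3397, against 1268 to 1700 in the controls. The other adult knockout samples had sums of 8344 and 10030. Clu made up most of the 3397, at 1856.83. By FPKM in that sample Cst9, Cst12, Aard, Inhbb, Fshr and Dhh lay below every control. Cldn11 fell among the controls there, and the remaining markers lay above them. The 9 spermatocyte markers summed to 3.13 in the first adult knockout sample, against 306.8 and 446.1 in the others. At day 7 the same Sertoli markers summed to 2775 and 2514 in the controls and to 1760 and 2049 in the knockout samples, with Cldn11 at 14.01 in the first knockout sample and 150.35 in the second. Markers of other cell types were also read at day 7, though cultured Sertoli cells may transcribe some of them. There 7 peritubular markers summed to 2090 and 1969 in the controls and to 3645 and 3694 in the knockout samples, and 6 fibroblast markers to 2152 and 2236 against 3920 and 3306. In bulk samples such as these, fewer cells of a type and less RNA per cell cannot be told apart.

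**Figure D1:**
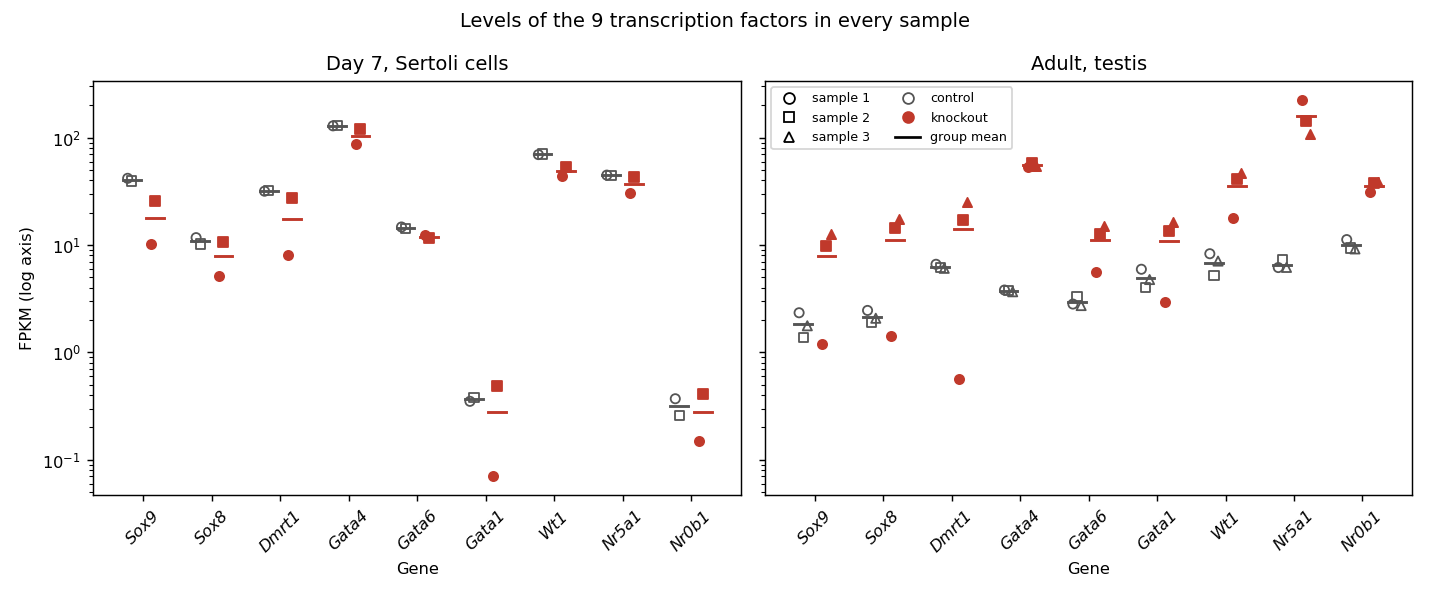
FPKM of the 9 transcription factor genes on a log axis in every sample at day 7 and in the adult testis, with controls as open grey symbols, knockout samples as filled red symbols and group means as bars. The 2 day 7 controls nearly coincide for most members, and the first knockout sample (circle) is the lowest for Sox9, Sox8, Dmrt1 and Gata1 in both tables.

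Among the day 7 control cells the order of levels by FPKM was Gata4 (129.2 ± 0.37), Wt1 (70.03 ± 0.64), Nr5a1 (44.76 ± 0.08), Sox9 (40.64 ± 1.7), Dmrt1 (31.88 ± 0.19), Gata6 (14.48 ± 0.35) and Sox8 (10.97 ± 1.06), as mean ± SD with n = 2. No neighbours in that part of the order overlapped in their sample ranges. Gata1 and Nr0b1 came last at 0.365 ± 0.021 and 0.315 ± 0.078, and their ranges overlapped. Gata1 had 10 and 11 counts in these controls and 2 and 14 in the knockout samples, where 2 counts carry a 95% Poisson interval of 0.242 to 7.23 for counting error alone. Nr0b1, which encodes the corepressor DAX1, had 10 and 7 counts in the controls against 4 and 11 in the knockout samples. Neither gene passed the filter, which asked for 2 or more samples with an FPKM of 0.5 or above, so 7 of the 9 members were tested at day 7, among 12880 genes.

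The adult control testis had another order. Nr0b1 led at 9.95 ± 1.13 (n = 3), followed by Wt1 at 6.87 ± 1.56, Nr5a1 at 6.54 ± 0.62, Dmrt1 at 6.29 ± 0.29, Gata1 at 4.91 ± 0.98, Gata4 at 3.74 ± 0.07, Gata6 at 2.96 ± 0.32, Sox8 at 2.14 ± 0.29 and Sox9 at 1.83 ± 0.49. Wt1, Nr5a1 and Dmrt1 did not differ beyond the spread between samples in this order, nor did Sox8 and Sox9. The samples labelled knockout were led by Nr5a1 at 158.9 ± 59.7 and Gata4 at 55.35 ± 2.14, followed by Nr0b1 at 35.83 ± 4.29 and Wt1 at 35.42 ± 15.4, and each of the lower neighbours, from Nr0b1 down to Sox9 at 7.9 ± 5.97, overlapped with the next. These are levels per length within a group, and FPKM is not comparable across the tables beyond its order.

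The summed FPKM of the 9 genes was 344 and 341.1 in Rnf20 Flox/Flox cells against 198 and 291.6 in the Amh-Rnf20-/- samples, and it was 42.39 to 49.71 in the adult controls and 336 to 347.2 in the adult samples labelled knockout. The composition of that sum differed more than its size among the adult knockout samples. Nr5a1 made up 66.4% of it in the first knockout sample, 41.0% in the second and 32.5% in the third, against 12.4% to 17.1% in the controls. Sox9 made up 0.354%, 2.84% and 3.77% in the knockout samples and 3.23% to 4.71% in the controls. In the day 7 knockout samples Sox9 held 5.15% and 8.80% of the sum, below the 12.2% and 11.6% of the controls, while Gata4 held 44.0% and 41.1%, above 37.5% and 37.9%.

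The first question was whether these genes differ between Rnf20 Flox/Flox and Amh-Rnf20-/- Sertoli cells at day 7. None of the 7 members tested, and none of the 12880 genes, had an adjusted p under 0.05 in edgeR's quasi-likelihood test (0.0% of genes). At an unadjusted p under 0.05 there were 1997 genes (15.5%), of which 900 were lower in the knockout samples (6.99%), and 1 of the 7 members, Wt1, was among them. DESeq2 called 581 of 12630 genes (4.6%) and 2 members, Sox9 (adjusted p = 0.0439) and Wt1 (adjusted p = 0.0265), both lower, where 1.53% of genes were called lower. On TMM-scaled counts both knockout samples lay below both controls for 6 of the 7 members, all but Sox8, where 26.1% of all genes tested were lower without overlap. The median log2 fold change over the 7 members was -0.43 and that over all genes tested was 0.00, to 2 decimals.

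SOX9 and SOX8 are related HMG-box factors that activate Amh. Sox9 had FPKM values of 41.84 and 39.43 in the controls against 10.19 and 25.66 in the knockout samples. Both knockout samples were below both controls, and the first was below the second by 1.32 on the log2 scale, where the controls differed by 0.10. The log2 fold change of Sox9 was -1.14 (SE 0.44, adjusted p = 0.329, edgeR). Sox8 had FPKM values of 11.72 and 10.22 in the controls against 5.12 and 10.70 in the knockout samples, so that the second knockout sample fell within the range of the controls. Its log2 fold change was -0.43 (SE 0.36, adjusted p = 0.618, edgeR).

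Dmrt1, the gene of the DM-domain factor that maintains Sertoli cell fate after birth, had the widest gap between the knockout samples of the 7 members. The 10 spermatogonium markers summed to an FPKM of 214.8 and 208.7 in the controls, with 148.5 and 144.6 in the knockout samples. Uchl1 made up most of these sums, at 164.85 and 148.82 in the controls against 119.76 and 106.98. In both knockout samples 9 of the 10 lay below both controls, where 26.1% of all genes tested did. The part of spermatogonia in the value of Dmrt1 was not tested. The FPKM of Dmrt1 was 31.74 and 32.01 in the controls against 8.12 and 27.16 in the knockout samples. The knockout samples were 1.73 apart on the log2 scale and the controls 0.004, and the log2 fold change was -0.82 (SE 0.56, adjusted p = 0.539, edgeR). Wt1, which encodes a zinc finger protein needed for the bipotential gonad and for Sertoli cell polarity, was low in both knockout samples, at 69.57 and 70.48 in the controls against 44.17 and 52.93 in the knockout samples. Its log2 fold change was -0.49 (SE 0.11, unadjusted p = 0.00829, adjusted p = 0.194, edgeR).

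The GATA zinc finger factors and the orphan nuclear receptor NR5A1 (SF-1) differed less. Gata4 had FPKM values of 128.90 and 129.43 in the controls against 87.05 and 119.96 in the knockout samples (log2 fold change -0.28, SE 0.16, adjusted p = 0.478, edgeR). Nr5a1 stood at 44.81 and 44.70 in the controls against 30.78 and 42.67 in the knockout samples (log2 fold change -0.25, SE 0.17, adjusted p = 0.536, edgeR). The 7 Leydig cell markers, of cells that also make both factors, summed to 156.1 and 161.5 in the controls, with 302.3 and 213.8 in the knockout samples. Cyp11a1 made up most of these sums, at 101.34 and 106.48 against 196.60 and 135.84. Of the 5 markers tested, 3 lay above both controls, where 24.8% of all genes did, and Star and Hsd17b3 overlapped with the controls. The part of Leydig cells in the values of Gata4 and Nr5a1 was not tested. For both genes the second knockout sample lay just under the controls and the first well below them. Gata6 was the exception to that arrangement, with 14.73 and 14.23 in the controls against 12.35 and 11.63 in the knockout samples, the first of which was the higher (log2 fold change -0.23, SE 0.09, adjusted p = 0.34, edgeR).

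**Figure D2:**
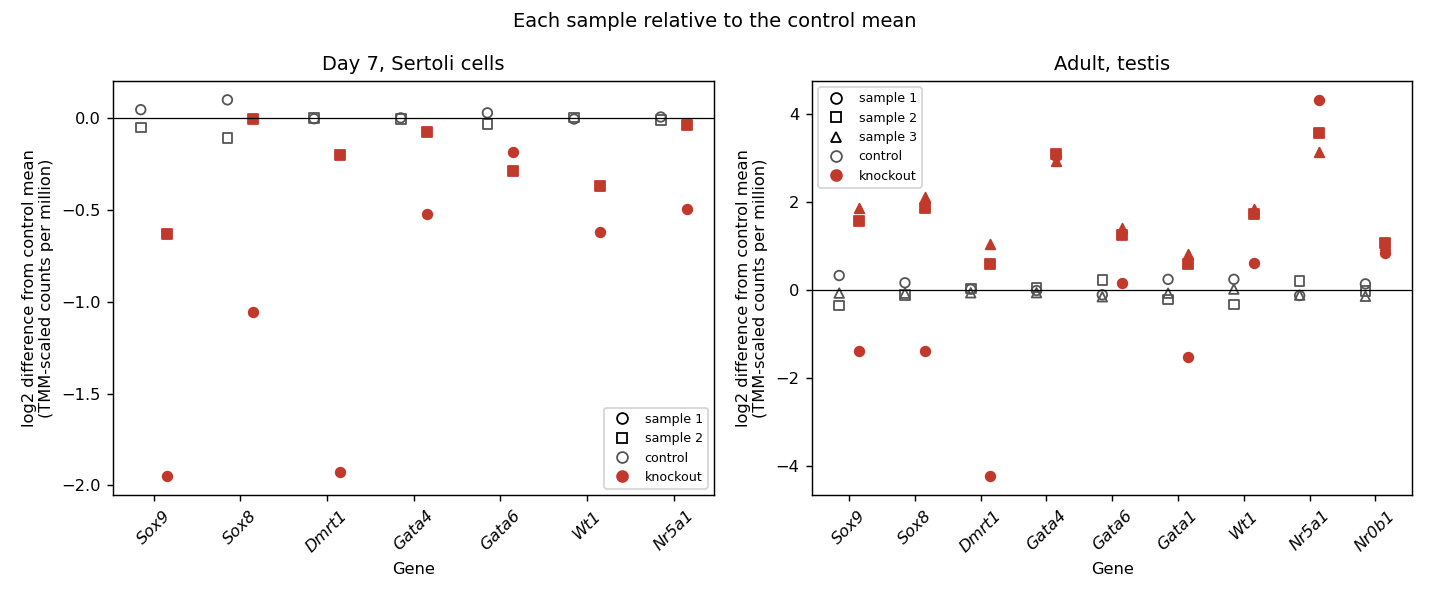
Log2 difference of each sample from the control mean on TMM-scaled counts, for the 7 members tested at day 7 and the 9 tested in the adult testis, with controls as open grey and knockout samples as filled red symbols. The first knockout sample (circle) is the farthest below the control mean for Dmrt1, Sox9 and Sox8 in both tables, and for Nr5a1 it is the lowest at day 7 and the highest in the adult testis.

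The day 7 values depended on which knockout sample was used. With the first left out, the remaining knockout sample is assumed to vary like the controls, and 3 members were called lower, Sox9 (-0.63, adjusted p = 0.000788), Wt1 (-0.37, adjusted p = 0.00234) and Gata6 (-0.28, adjusted p = 0.0391), among 11.7% of all genes called lower by edgeR. The log2 fold changes of Sox8, Gata4 and Nr5a1 were then -0.002, -0.07 and -0.04, and that of Dmrt1 was -0.20 (adjusted p = 0.0691). With the second left out, 6 members were called lower, all but Gata6, among 18.8% of all genes, and Sox9 and Dmrt1 reached -1.95 and -1.93. The direction was lower for all 7 members in both fits, and Sox9 and Wt1 were called in each.

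Amounts per Sertoli cell marker were compared next, because 7 of the 14 Sertoli markers also lay below both controls in these knockout samples, and 1 above. Of all genes tested, 26.1% were lower and 24.8% higher without overlap on TMM-scaled counts. For each sample, the log2(FPKM + 0.1) of a member was taken relative to the mean of the same over the 14 markers. By this measure Sox9 was below the controls in both knockout samples, by 0.75 and 0.45, and the difference between group means was -0.60. Sox8 was above them by 0.15 and 0.18 (difference 0.17), and Nr5a1 by 0.69 and 0.15 (difference 0.42). For Dmrt1 (-0.37), Gata4 (0.38), Gata6 (0.45) and Wt1 (0.19) the groups overlapped. The groups were thus apart for 3 of the 7 members, where they were apart for 61.2% of all genes tested. An exact two-sided permutation test of 2 against 2 samples cannot give a p under 0.333, the value found for Sox9, Sox8 and Nr5a1 (0.778 after Benjamini-Hochberg adjustment over the 7 members), so no difference could be called by it. Relative to the median of the markers in place of their mean, Sox9 stood at -0.31 and Sox8 at 0.46, and with Cldn11 left out of the markers Sox8 stood at 0.05 and its groups overlapped.

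**Figure D3:**
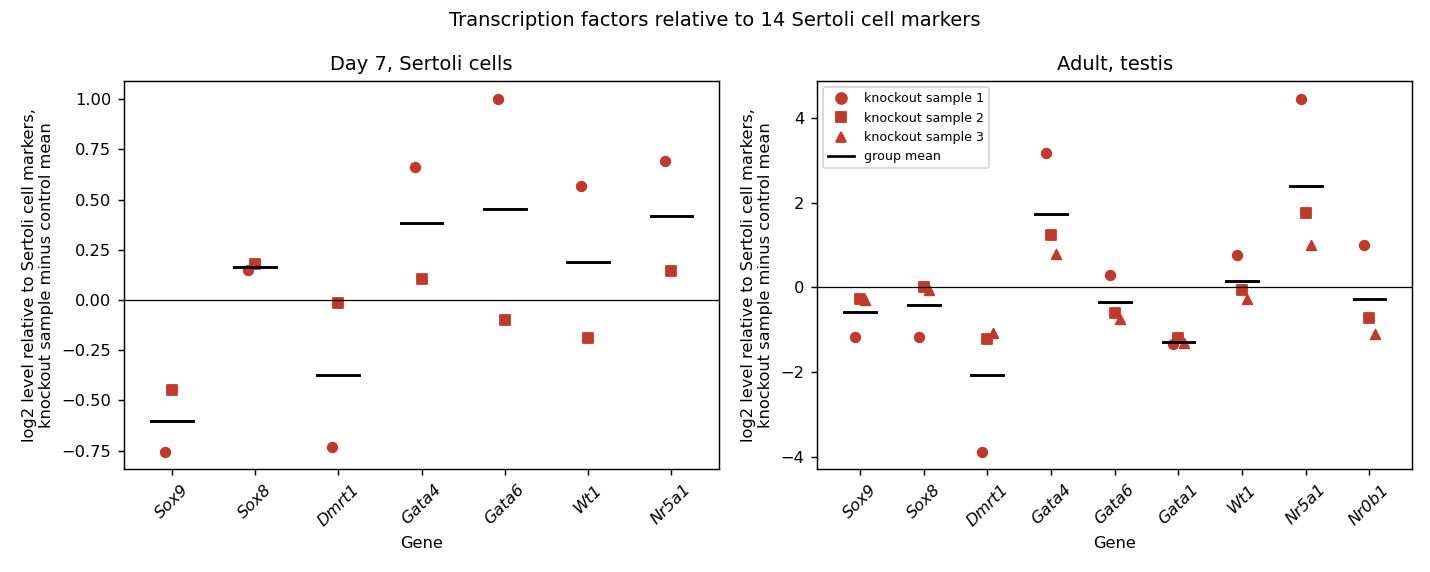
Log2 level of each member relative to the mean of 14 Sertoli cell markers, as the knockout sample minus the control mean, with symbols for the knockout samples and bars for their mean; 0 is the control mean. At day 7 only Sox9 has every knockout sample well below 0 without overlap, and in the adult testis Dmrt1, Gata1 and Sox9 are below 0 and Gata4 and Nr5a1 above it in every knockout sample.

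The second question was whether the same genes differ between adult testes labelled WT and RNF20 conditional knockout. All 9 members passed the filter, here 3 or more samples at that FPKM, among 15919 genes tested. In edgeR's test 5 of the 9 members were called higher in the samples labelled knockout, Nr5a1, Gata4, Wt1, Gata6 and Nr0b1, and none lower, where 40.9% of all genes were called higher and 81.5% in either direction. On TMM-scaled counts 4 of the 9, all of those but Gata6, lay above every control in every knockout sample, against 42.4% of all genes. Their median log2 fold change was 1.23 and that of all genes 0.01.

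Nr5a1, which drives steroidogenic genes in Leydig cells as well as acting in Sertoli cells, had the largest difference of the 9. Its FPKM was 6.17, 7.26 and 6.19 in the controls against 225.12, 142.31 and 109.14 in the samples labelled knockout, so the groups lay far apart. The log2 fold change was 3.76 (SE 0.36, adjusted p = 0.000166, edgeR). Gata4, a partner of NR5A1 in both cell types, had 3.81, 3.74 and 3.67 in the controls against 53.51, 57.70 and 54.85 in the knockout samples. By FPKM these were the tightest groups of the table's members. On TMM-scaled counts the controls of Dmrt1 spanned 0.10 on the log2 scale and those of Gata4 0.12. The log2 fold change of Gata4 was 3.03 (SE 0.12, adjusted p = 2.7e-05, edgeR).

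Nr0b1, whose product opposes NR5A1, had FPKM values of 11.24, 9.40 and 9.20 in the controls against 30.88, 38.18 and 38.44 in the knockout samples. The groups did not overlap, and the log2 fold change was 0.99 (SE 0.13, adjusted p = 0.000595, edgeR). Wt1 had 8.30, 5.21 and 7.09 in the controls against 17.94, 41.44 and 46.88 in the knockout samples, with the first knockout sample the lowest of its group and still above every control. Its log2 fold change was 1.50 (SE 0.35, adjusted p = 0.00757, edgeR).

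Gata6, which overlaps with Gata4 in function, had 2.82, 3.33 and 2.73 in the controls against 5.65, 12.70 and 14.98 in the knockout samples. On FPKM the groups were apart, and on TMM-scaled counts the first knockout sample fell among the controls. The log2 fold change was 1.04 (SE 0.34, adjusted p = 0.0288, edgeR), and this call was lost with median-ratio scaling (adjusted p = 0.0535) and when any 1 sample other than the first knockout was left out (adjusted p up to 0.0907).

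Sox9, Sox8, Dmrt1 and Gata1 shared a low value in the first knockout sample and none was called with TMM. With total-count scaling Sox9 (2.11, adjusted p = 0.0451) and Sox8 (2.37, adjusted p = 0.0354) were called higher by edgeR. Sox9 had FPKM values of 2.34, 1.37 and 1.77 in the controls against 1.20, 9.86 and 12.65 in the knockout samples. Sox8 had 2.46, 1.89 and 2.08 in the controls against 1.42, 14.27 and 17.63 in the knockout samples. For both SOX genes the first knockout sample was below every control and the other two were above every control. The log2 fold changes were 1.23 for Sox9 (SE 0.75, adjusted p = 0.174, edgeR) and 1.48 for Sox8 (SE 0.79, adjusted p = 0.126, edgeR).

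Dmrt1, which spermatogonia also transcribe, had the same arrangement in a sharper form, at 6.62, 6.18 and 6.07 in the controls against 0.57, 17.27 and 24.91 in the knockout samples. Gata1, the erythroid GATA factor that Sertoli cells also use in some stages of the tubule, had 5.95, 4.01 and 4.77 in the controls against 2.93, 13.51 and 16.51 in the knockout samples. Their log2 fold changes were 0.28 for Dmrt1 (SE 1.01, adjusted p = 0.805, edgeR) and 0.28 for Gata1 (SE 0.56, adjusted p = 0.665, edgeR). The 8 erythroid and mast cell markers summed to an FPKM of 2400, 1198 and 495.6 in the knockout samples and of 73.9 to 136.3 in the controls, an order among the knockout samples opposite to that of Gata1. The globin genes made up most of that sum. Of the 8 markers, 5 were called higher and 3 lower in edgeR's test, where 40.9% of all genes were called higher and 40.6% lower, and the 3 that were lower, Klf1, Alas2 and Epor, include Klf1, a partner of GATA1 in red cell precursors, at -4.01 (adjusted p = 0.00037). The 10 spermatogonium markers summed to 48.38, 308.2 and 450.2 in the knockout samples and to 269.9 to 302.1 in the controls, with the same order as Dmrt1. Of these sums Uchl1 gave 6.72 in the first knockout sample and 189.30 and 297.01 in the other two, and of the 10 markers 2 were called higher and 4 lower, against the same shares of all genes. The part of these cells in the values was not tested.

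Without the first knockout sample, all 9 members were called higher in the samples labelled knockout, among 45.3% of all genes. Under that fit the log2 fold changes were 1.86 for Sox9, 2.13 for Sox8, 0.98 for Dmrt1, 0.85 for Gata1, 1.47 for Gata6, 1.93 for Wt1, 1.19 for Nr0b1, 3.15 for Gata4 and 3.51 for Nr5a1. Adjusted p-values ran from 3.9e-08 for Gata4 to 0.00173 for Gata1. The direction of Dmrt1 was not stable in the other fits, since its log2 fold change was -0.18 without the third knockout sample.

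**Figure D4:**
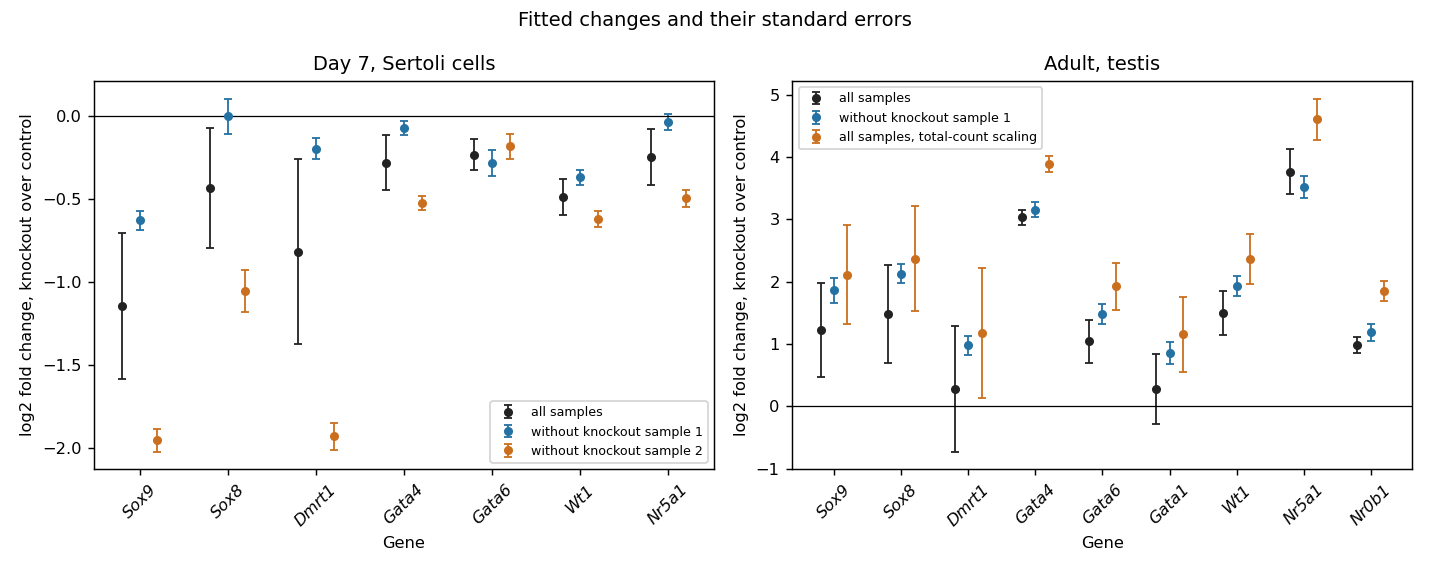
Fitted log2 fold change of knockout over control with its standard error from edgeR, for all samples and with knockout samples left out at day 7, and for all samples, without the first knockout sample and with total-count scaling in the adult testis. At day 7 the fits without the first and without the second knockout sample lie on either side of the fit of all samples for every member, and in the adult testis leaving out the first knockout sample narrows the error bars of every member but Gata4 and Nr0b1 and moves Sox9, Sox8, Dmrt1 and Gata1 upwards.

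The gap between the first and second knockout samples was widest for Dmrt1, Sox9 and Sox8 in both tables, and the other members tested in both did not keep their order. In the adult testis the first knockout sample minus the second was -4.83 for Dmrt1, -3.25 for Sox8, -2.96 for Sox9, -2.11 for Gata1, -1.12 for Wt1 and -1.08 for Gata6 on the log2 scale. It was -0.22 for Nr0b1, -0.03 for Gata4 and 0.74 for Nr5a1, the single member with its highest value in that sample. At day 7 it was -1.73 for Dmrt1, -1.32 for Sox9, -1.05 for Sox8, -0.46 for Nr5a1, -0.45 for Gata4, -0.25 for Wt1 and 0.10 for Gata6.

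The adult comparison depends on scaling. Germ cell RNA differed between the groups, as 8 spermatid markers summed to an FPKM of 123600 to 192600 in the controls against 2.16 to 73.96 in the knockout samples. TMM factors were 0.710 to 0.761 in the controls against 1.27 to 1.42 in the knockout samples. Over all genes the median log2 fold change stood at 0.01 with TMM, -0.19 with median-ratio scaling and 0.87 with total counts, and members called numbered 5, 4 and 7, all of them higher, with 40.9%, 37.6% and 54.1% of all genes called higher.

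A ratio within a sample does not depend on scaling. Relative to the 14 Sertoli cell markers, Dmrt1 was lower in every adult knockout sample than in every control, by 3.88, 1.22 and 1.08 below the control mean. Gata1 was lower by 1.34, 1.21 and 1.31, an even difference that includes the first knockout sample, and Sox9 by 1.16, 0.27 and 0.30. Gata4 was higher by 3.18, 1.25 and 0.79 and Nr5a1 by 4.46, 1.76 and 0.99. The groups overlapped for Sox8 (difference -0.41), Gata6 (-0.35), Wt1 (0.14) and Nr0b1 (-0.28). The 5 of 9 members without overlap, where 57.4% of all genes tested did not overlap by this measure, reached p = 0.1, the smallest that an exact two-sided permutation test of 3 against 3 allows, and 0.18 after Benjamini-Hochberg adjustment over the 9 members. Of the 14 markers, 7 were called higher in the samples labelled knockout and none lower. Of all genes, 40.9% were called higher and 40.6% lower. Without the first knockout sample 13 of the markers were called higher and 1 lower, and without the second or the third control 4 were called higher. All 7 Leydig cell markers were called higher, with summed FPKM of 63490 to 88130 against 4019 to 5618 in the controls. Their part in the values of Nr5a1, Gata4 and Nr0b1 was not tested.

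For 7 members tested in both tables, the gene of most similar pattern was the one with the smallest root mean square difference of log2(FPKM + 0.1), centred on the control mean of each table, over all 10 samples and 12377 genes. It was Dhh, the hedgehog ligand of Sertoli cells, for Sox9 (0.21), Aard for Sox8 (0.17) and Mro for Dmrt1 (0.23). For Gata4 it was Hadh (0.06), for Nr5a1 Acsbg1 (0.10), for Wt1 Hk2 (0.11) and for Gata6 Gnptab (0.14). Among the members themselves Sox9 and Sox8 were nearest to each other (0.38), as were Gata4 and Nr5a1 (0.45), and Gata6 and Wt1 (0.37), but these members ranked only between 19 and 1028 in nearness among all genes compared.

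Relatives of the same families were counted next, 12 genes of the SOX, GATA, DMRT, NR5A and NR0B families. At day 7, 6 were tested and none was called, with log2 fold changes from -0.57 for Dmrta1 to 1.33 for Dmrt2. In the adult testis 9 were tested, of which 6 were called lower and 1 higher, where 40.6% of all genes were called lower and 40.9% higher. Dmrtb1 and Dmrtc2, DM-domain genes of germ cells, fell with log2 fold changes of -5.84 (SE 1.66, adjusted p = 0.0166, edgeR) and -4.68 (SE 1.01, adjusted p = 0.00518, edgeR), from mean FPKM values of 588.0 and 42.07 to 18.8 and 3.17. Without the first knockout sample they were -5.12 and -3.99, and the call of Dmrtb1 was lost without the second (adjusted p = 0.054) or the third (adjusted p = 0.0548). Nr0b2, which encodes the NR0B1 relative SHP, rose by 3.09 (SE 0.57, adjusted p = 0.0027, edgeR).

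Of 16 cofactors and upstream regulators, 13 were tested in each table. At day 7 none was called, and the extremes were Gadd45g at 0.77 and Cbx2 at -0.43. Zfpm2, the gene of the FOG2 cofactor of GATA4, was at -0.07 (SE 0.23, adjusted p = 0.904, edgeR), and it was called in opposite directions without the first knockout sample (-0.43, adjusted p = 0.00824) and without the second (0.21, adjusted p = 0.0476). Of those in the adult testis 8 were called higher and 3 lower, where 40.9% of all genes were called higher and 40.6% lower. Fgfr2, the receptor through which FGF9 maintains Sox9 in the fetal gonad, rose by 4.90 (SE 0.56, adjusted p = 0.000334, edgeR). Zfpm2 was called lower at -0.49 (SE 0.18, adjusted p = 0.0457, edgeR) with TMM and stood at 0.36 (adjusted p = 0.114) with total-count scaling, so its direction depends on the scaling. The call of Zfpm2 was also lost without the second (adjusted p = 0.134) or the third knockout sample (adjusted p = 0.116).

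Among 10 other transcription regulators of Sertoli cells, none was called at day 7, where Tcf21 had 2.01 (SE 0.19, adjusted p = 0.119, edgeR) and Rb1 -0.34. Among adult samples 7 of the 10 were called higher and 1 lower, where 40.9% of all genes were called higher and 40.6% lower. Rhox5, a homeobox gene of Sertoli cells, fell from a mean FPKM of 18.36 to 0.697, with values of 20.75, 17.69 and 16.64 in the controls against 0.34, 0.34 and 1.41 in the knockout samples (log2 fold change -5.57, SE 0.53, adjusted p = 0.000159, edgeR).

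Of 12 known targets of these factors, 7 of which (Amh, Dhh, Fshr, Inha, Inhbb, Cst9 and Aard) are also among the 14 Sertoli cell markers, all were tested at day 7 and none was called. Amh, the target of SOX9, WT1, GATA4 and NR5A1, had FPKM values of 6.41 and 5.56 in the controls against 3.87 and 3.33 in the knockout samples (log2 fold change -0.69, SE 0.19, adjusted p = 0.245, edgeR). It was called lower without the first knockout sample (-0.81, adjusted p = 0.0235) and without the second (-0.58, adjusted p = 0.0442). Fshr, the receptor for follicle-stimulating hormone, was at -0.71 (SE 0.75, adjusted p = 0.695, edgeR) with all samples and at 0.03 without the first knockout sample. Ptgds, the prostaglandin D synthase that SOX9 activates, was at 2.17 (SE 0.66, adjusted p = 0.268, edgeR), with 0.97 without the first knockout sample (adjusted p = 0.0104) and 2.82 without the second (adjusted p = 1.14e-05). Inha, the inhibin alpha subunit, was at -1.40 (SE 0.56, adjusted p = 0.344, edgeR), with -0.78 (adjusted p = 0.000967) and -2.49 (adjusted p = 4.32e-06) in the same fits. The median of the targets was -0.45, where that of all genes was 0.00. In the adult testis 11 were tested and 5 were called, all higher, near the 40.9% of all genes called higher. The number called was 4 without the first control and 3 without the second or the third. Amh was at 0.88, 0.63 and 0.89 in the controls against 1.70, 13.40 and 19.47 in the knockout samples (log2 fold change 2.95, SE 0.84, adjusted p = 0.0162, edgeR), and Ptgds rose by 4.88 (SE 0.54, adjusted p = 0.000288, edgeR). Fshr had 1.29, 1.22 and 1.08 in the controls against 0.30, 4.76 and 8.70 in the knockout samples, the arrangement of Sox9 and Sox8 (log2 fold change 1.03, SE 0.95, adjusted p = 0.346, edgeR), and 1.71 without the first knockout sample (adjusted p = 0.000308). Cst9 had the lowest value of the list at -1.93 (SE 0.88, adjusted p = 0.0828, edgeR), and without the first knockout sample 9 targets were called higher and 1, Cst9, lower, where 45.3% of all genes were called higher.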

How the data were processed

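RNA-seq values of 10 samples in 2 tables were analysed. The submitters' notes and methods name HISAT, Bowtie2, RSEM and the build GRCm38.p6. The deposited columns hold an estimated count per gene, which the authors did not normalize, FPKM, which the authors scaled by length and library size, and TPM, which the authors scaled to a fixed total and which were used here for the order of levels. Tool versions and strand handling are not given in the sources used here, and 20 empty columns of the adult table were not used. The members and all lists were chosen with earlier results of these data known.

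Counts were rounded and tested with edgeR 4.0.16 (quasi-likelihood, TMM, Benjamini-Hochberg over all genes tested, called at adjusted p under 0.05) within each table, for genes at an FPKM of 0.5 or above in 2 (day 7) or 3 (adult) samples or more. The SE is the log2 fold change over the root of the test statistic. The test was tried on simulated data: at day 7 it recovered 62.0% of genes raised 2-fold, 92.0% of those raised 4-fold, and 56.0% and 82.0% of those lowered as much, with 13 false calls among 12880 genes, and for adult testis 0.0%, 42.0%, 2.0% and 26.0%, with 5 among 15892. The simulation drew each gene independently and held no shift shared by many genes of 1 sample. Its shares therefore do not tell how many true changes the test would find in the measured data. The measured day 7 data gave 0 calls, which does not show that no gene changed. Levels relative to markers used log2(FPKM + 0.1) and an exact two-sided permutation test. Named genes were the 9 members, Rnf20, Amh, Fshr, Zfpm2, Dmrtb1, Dmrtc2, the largest rise and fall of each list in each table, and the gene nearest to each member, and some genes that this rule names are not reported here. Cldn11, Uchl1, Alas2, Epor, Inhbb, Clu, Cst12 and Cyp11a1 were named outside this rule, after values were seen. Alternatives were DESeq2 1.42.0, limma 3.58.1 on log2(FPKM + 0.1) and log2(FPKM + 1), other scalings, other filters, the replicate number as a block, and each sample left out. R 4.3.3, Python 3.11.15, pandas 2.3.3 and scipy 1.17.1 were used. Intervals on counts cover counting error only.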

Additional observations from a re-analysis of the deposited data

Results flagged for a closer look

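For 3 members every knockout sample lay below every control in the day 7 Sertoli cells and above every control in the adult testis, on TMM-scaled counts, as did 1434 of the 12378 genes tested in both tables (11.6%). The adult log2 fold change minus that at day 7 was 3.31 for Gata4, 1.99 for Wt1 and 4.01 for Nr5a1. The difference was not tested, since the tables hold different materials and were processed separately. Gata6 had the same directions on FPKM and overlapped with the controls in the adult testis on TMM-scaled counts.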

How the results depend on the processing

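At day 7 the fit of all samples called 0 genes and 0 members, and DESeq2 called 581 genes, 2 members and 4 genes of the 4 lists of relatives, cofactors, other regulators and targets, of which edgeR called 0. Leaving out each sample in turn gave 0 to 5136 genes, 0 to 6 members and 0 to 24 listed genes, with the calls coming when a knockout sample was left out. The number of members without overlap relative to the Sertoli cell markers was 3, 2 without Cldn11 among the markers, and 4 to 7 with 1 sample left out, where all genes without overlap went from 61.2% to between 63.8% and 98.5%, as fewer samples overlap less often by construction. In the adult testis 12969 genes were called, 7432 when a change beyond 1 on the log2 scale and an adjusted p under 0.001 were asked for, and 12018 to 13757 with 1 sample left out. Members called were 5, and 4 to 9 with 1 sample left out, and listed genes 31, and 28 to 38. The adult log2 fold change of Dmrt1 was -0.44 with the replicate number as a block (adjusted p = 0.778) and -0.18 to 0.98 with 1 sample left out, and the cause was not tested. TPM in place of FPKM moved 2 places in the order of levels at day 7 and 2 in the adult testis.

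The replicate block left 0 genes and 0 members called at day 7, and 12209 genes, 5 members and 28 listed genes in the adult testis. The numbers were not treated as pairs, since samples of the same number correlated in their deviations by 0.038 at day 7 and by 0.0156 to 0.0246 in the adult testis. With 2 knockout samples at day 7, each fit without one of them rests on a single sample, and the counts of Gata1 and Nr0b1 there, 16 and 15 over the knockout samples, limit the precision of their values.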
